A study of Rattus norvegicus with 35 samples.

Results

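The olfactory epithelium of Brown Norway rats was profiled on whole rat genome arrays at 3 ages, and the data were read here for 8 genes of the glia that accompany nerves of the nose: Mbp, Mag, Pmp22, Sox10, Npy, Fabp7, Apod and S100b. A probe was taken when the array's own gene name was one of these symbols, or when its description gave the symbol in brackets. This rule found all 8 genes, by 9 of the 41012 probes of the array, with Mbp on 2 probes and each other gene on 1. The 27 rats were 19 newborn pups aged 3 to 5 days, of unrecorded sex, from 4 litters called L1 (4 pups), L2, L3 and L4 (5 pups each), 4 adult males aged 9 weeks and 4 old males aged 22 months. The labels give no treatment and no engineered allele for any group. Each pup gave 1 array, from 1 side of its nose, and each adult or old rat gave 1 array for each side, A and B, which were averaged, so that 35 arrays entered as 27 rats.

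Axons of olfactory neurons are bundled by ensheathing glia, which follow them from the lamina propria to the olfactory bulb and do not wrap them in myelin. The nasal mucosa is also crossed by trigeminal and autonomic fibres, whose Schwann cells do form myelin around the thicker axons. Both glial types derive from the neural crest and use the transcription factor Sox10. Mbp, Mag and Pmp22 code for structural proteins of myelin, whereas Npy, Fabp7, Apod and S100b code for secreted or cytoplasmic products known from ensheathing and other glia. Npy is also made by sympathetic neurons, Pmp22 by fibroblasts and epithelia, and Apod by fibroblasts. In a dissected tissue, fewer cells of a type and less RNA per cell cannot be told apart.

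Levels are given as log2 of the processed spot signal over the median of its array, so that 0 is the median probe and a difference of 1 is a 2-fold difference. They were compared only within a probe. Array medians ran from 37.1 to 162.2 intensity units and 24484 to 28361 probes per array were above background. All 5 measured markers of mature olfactory sensory neurons were above background at every age, Omp with levels of 9.80 to 10.77 in pups, 11.42 to 11.71 in adults and 12.46 to 12.74 in old rats. Litters sat largely on slides of their own, and adult arrays were scanned on other days and extracted with another software release than all others, so that adult age, scan day and release cannot be told apart. L1 and old rats shared 1 scan day. The precision is limited by the number of arrays. Pups, adults and old rats were separate animals, but pups of a litter share a mother and are not independent of each other. The SEs and p-values given for newborn rats rest on the spread of rats within groups and leave out the spread between litters.

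The probes of Mbp, Mag and Apod are shown because the results turn on what they read. The second Mbp probe lay at chr18:79117549-79119487 (rn3, plus strand). The Mag probe lay at chr1:86033067-86033126 (rn3, minus strand) and the Apod probe at chr11_random:890897-890956 (rn3, plus strand). Positions are those of the scanner files, and each sequence is written 5′ to 3′ on the strand of its gene.
Mbp second probe: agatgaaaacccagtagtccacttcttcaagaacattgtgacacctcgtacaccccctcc
Mag probe: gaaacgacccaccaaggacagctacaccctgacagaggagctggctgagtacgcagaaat
Apod probe, first 57 of 60 bases: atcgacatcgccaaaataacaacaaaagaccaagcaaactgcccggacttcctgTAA
Capitals in the Apod probe mark the first stop codon of its first reading frame. The second Mbp probe covered 1939 bases of the genome with 60 bases of sequence, so that it joins at least 2 exons and reads spliced RNA. The first Mbp probe lay apart from it at chr18:79129183-79129242 (rn3, plus strand), where none of its frames was open, whereas the second probe and the Mag probe each had 1 open frame. No annotation of rn3 was used here.

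The 250 bases before the transcription start were available for 7 of the 8 genes in RefSeq (GRCr8), all but Sox10. They were searched on both strands for ACAAAG and ACAATG, core words bound by Sox proteins. Of 33469 promoters of the same length, 16.3% held ACAAAG, 11.1% ACAATG and 25.3% either word. The promoters of Mbp and Apod held the most matches, and that of Npy, a gene whose level moved with Apod, held none. They are printed with the words in capitals, Mbp from its downstream start at chr18:78209995-78210244, Apod from chr11:82935970-82936219 and Npy from chr4:80211861-80212110, all on the plus strand.
Mbp promoter: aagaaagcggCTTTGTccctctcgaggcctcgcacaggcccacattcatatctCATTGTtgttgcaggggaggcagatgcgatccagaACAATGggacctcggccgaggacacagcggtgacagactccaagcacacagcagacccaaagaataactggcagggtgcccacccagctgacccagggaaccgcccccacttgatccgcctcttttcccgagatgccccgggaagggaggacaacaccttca
Apod promoter: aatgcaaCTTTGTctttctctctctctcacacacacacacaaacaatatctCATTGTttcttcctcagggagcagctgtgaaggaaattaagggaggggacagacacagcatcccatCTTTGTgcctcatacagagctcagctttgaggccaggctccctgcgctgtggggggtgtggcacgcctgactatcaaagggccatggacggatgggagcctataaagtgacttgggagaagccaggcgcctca
Npy promoter: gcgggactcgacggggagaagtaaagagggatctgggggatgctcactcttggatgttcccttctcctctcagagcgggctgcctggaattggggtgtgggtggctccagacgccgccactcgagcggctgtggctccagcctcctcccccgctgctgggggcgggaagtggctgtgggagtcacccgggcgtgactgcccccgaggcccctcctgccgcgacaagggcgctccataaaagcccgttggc
The Mbp matches began 240, 197 and 162 bases before the start, and those of Apod 243, 199 and 133 bases before it. Mag held 1 ACAAAG, 152 bases before its start, on the opposite strand. Pmp22, Fabp7, S100b and the upstream start of Mbp held neither word in this window. A match is a string of letters and was not tested as a binding site.

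**Figure D1:**
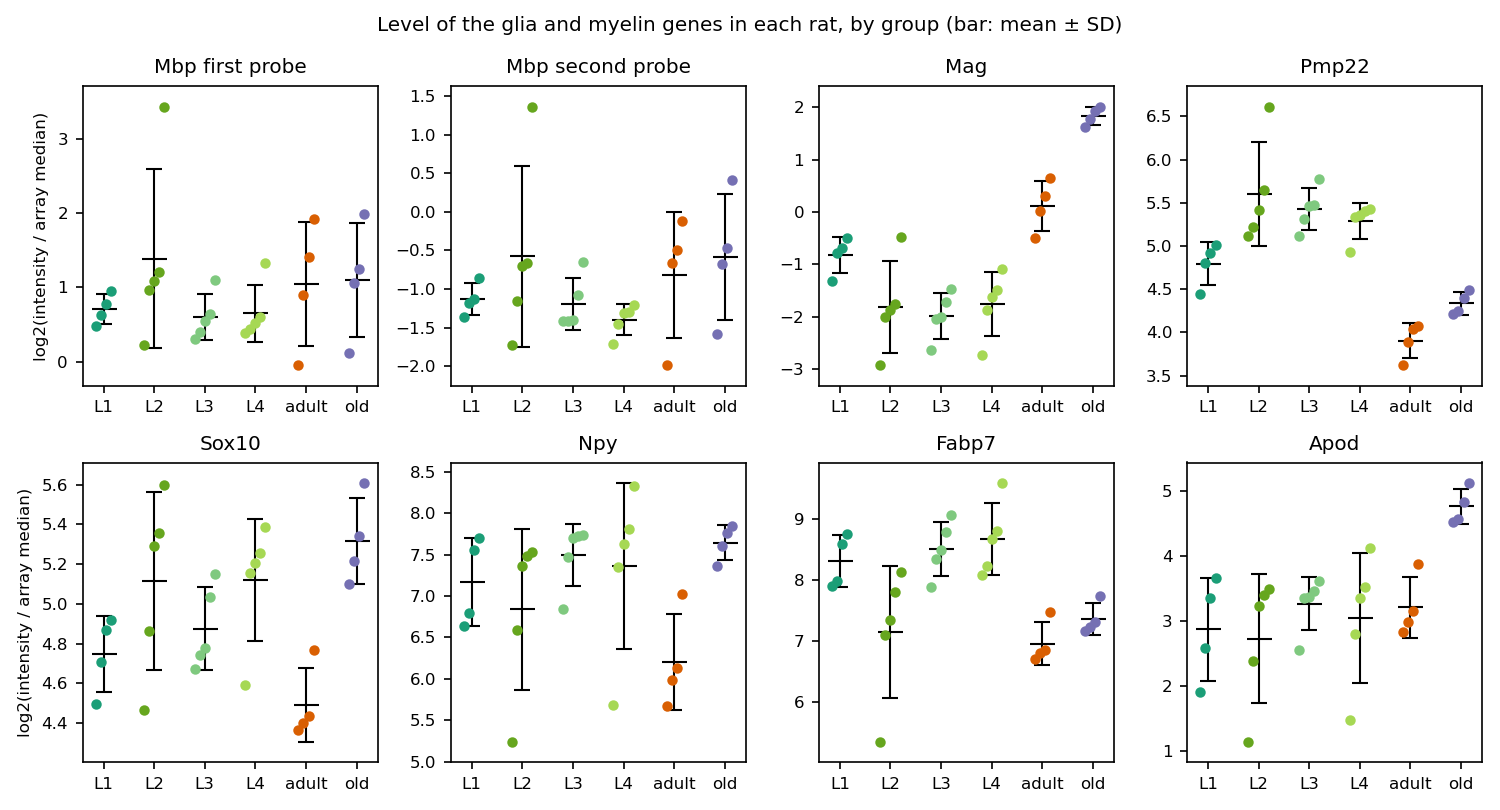
Log2 level over the array median (vertical axis, own scale in each panel) of 8 probes of 7 genes in each of the 27 rats, by litter (L1 to L4), adult and old; points are rats, long bars are group means and error bars are 1 SD. Mag is lowest in pups and highest in old rats, Pmp22 is highest in pups, and Mbp shows 1 pup of L2, rat 25, at 3.44 above all others.

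The 7 measured genes did not move together between newborn and later ages. At a threshold of 0.01 for the adjusted p, newborn rats had more Pmp22 and Fabp7 than adults and less Mag, which is 2 members up and 1 down where 26.8% of all probes tested were higher and 19.8% lower. Against old rats, Pmp22 was higher in pups while Apod and Mag were lower, beside 20.4% of probes higher and 22.7% lower. Between adult and old rats 0 members were higher in adults by limma (0 also at an unadjusted p under 0.05) and 2, Sox10 and Mag, were lower, beside 11.7% and 20.2% of probes. With shares of this size among all probes, a count of 3 of 7 is not set apart from the array as a whole. For adult minus old rats the estimates of all 7 measured genes were below 0, from -0.06 for Mbp to -1.72 for Mag. Those of Mbp and Fabp7 changed sign under some other scalings or background corrections. The median member differed by 0.47, -0.35 and -0.83 in the 3 comparisons, and the median of all probes by 0.10, -0.04 and -0.13. That median depends on the scaling and reached 0.20 for newborn against adult rats. Calls between newborn and adult rats were 10998 higher and 8100 lower over all probes, against 9100 and 10329 after quantile normalization. Calls between adult and old rats were 4812 higher and 8300 lower, against 6621 and 6168 after quantile normalization.

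**Figure D2:**
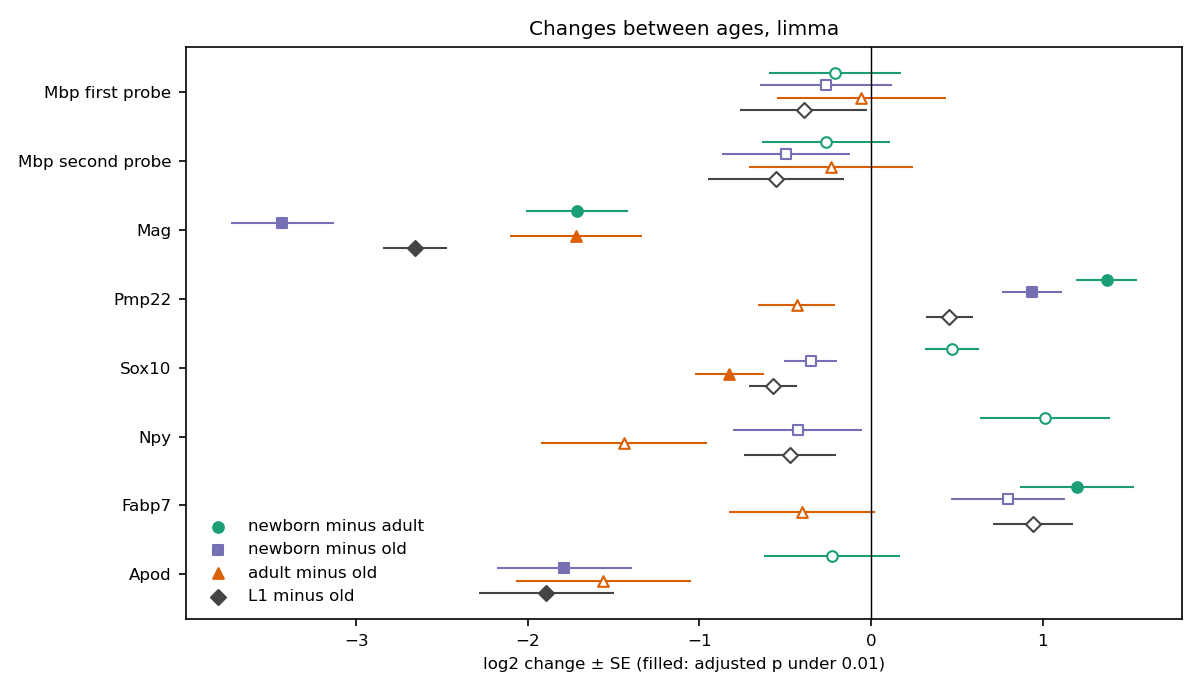
Log2 change (horizontal axis) of each member probe for newborn minus adult, newborn minus old, adult minus old and L1 minus old; symbols are limma estimates, bars are 1 SE, and filled symbols have an adjusted p under 0.01. Mag is below 0 in all 4 comparisons, and Pmp22 is above 0 for newborn rats against both other ages.

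Mag, the myelin-associated glycoprotein of the membrane that faces the axon, showed the widest change with age. Its levels in adult rats were 0.64, 0.30, -0.49 and 0.02, and in old rats 1.93, 1.62, 1.78 and 2.01. Pups ran from -2.93 to -0.49 with a median of -1.72. Old rats were above every adult and every pup, while the highest pup, rat 25, was level with the lowest adult, rat 15. The newborn level was lower than the adult by 3.28-fold (log2 change -1.71 ± 0.30 SE, adjusted p = 3.121e-05) and lower than the old by 10.8-fold (-3.43 ± 0.30, adjusted p = 1.447e-09). Adult rats were in turn 3.29-fold below old rats (-1.72 ± 0.38, adjusted p = 0.000843). Mag was close to background in pups, where 14 of 19 arrays measured it, against 8 of 8 arrays at each later age. With another background correction the change against adults shrank to -0.54 and that against old rats to -1.75, both still past the threshold. That correction adds an offset of 50, where Mag read 6.4 to 40.4 intensity units in pups, and an offset of this size narrows changes at low signal.

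Mbp, the protein that binds the inner faces of the myelin membrane together, did not pass the test in any comparison, and its spread between rats was the widest of the members in adult and old animals. By the first probe, adult rats stood at 1.41, 1.92, -0.05 and 0.90 and old rats at 1.06, 0.12, 1.24 and 1.99. Pups ran from 0.23 to 3.44 with a median of 0.63, so that all 3 ages overlapped. The change was -0.21 ± 0.38 for newborn against adult (adjusted p = 0.685), -0.26 ± 0.38 against old (0.609) and -0.06 ± 0.49 for adult against old rats (0.961). In L2 the levels were 0.97, 1.21, 0.23, 1.09 and 3.44, the last from rat 25, the highest of all 27 rats. The second, exon-spanning probe placed the same pup highest, at 1.36 where the other pups of L2 stood between -1.73 and -0.66. The probes did not rank all rats alike. Rat 35 was the highest of L4 by the first probe (1.33) and the lowest by the second (-1.71). The second probe was above background on 17 of 19 pup arrays and 7 of 8 old arrays, and it gave no call either, with -0.26 ± 0.37, -0.49 ± 0.37 and -0.23 ± 0.48 in the same comparisons. The sign of the Mbp change was not stable to leaving out a rat. Without adult rat 14 the newborn minus adult change was 0.083, and without old rat 20 the newborn minus old change was 0.031.

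Pmp22, a small membrane protein of compact peripheral myelin, went the opposite way to Mag between newborn and later ages. Adult rats stood at 3.90, 4.07, 3.62 and 4.04 and old rats at 4.50, 4.21, 4.25 and 4.40. Pups ran from 4.45 to 6.61 with a median of 5.34. Every pup was above every adult, and only rat 12 of L1, at 4.45, fell within the old range. The newborn level was 2.59-fold above the adult (1.37 ± 0.18, adjusted p = 4.637e-07) and 1.92-fold above the old (0.94 ± 0.18, adjusted p = 8.941e-05). All adults lay below all old rats, but the change of -0.43 ± 0.23 did not pass the threshold (adjusted p = 0.132). Markers of fibroblasts, a further source of Pmp22, moved in the same direction between newborn and later ages. Their summed level over 6 genes was 3076 to 7522 times the array median in pups, 2166 to 3508 in adults and 397 to 749.1 in old rats, none of them at 0. Their part in the Pmp22 result was not tested, and between adult and old rats the fibroblast sum was lower in old rats, whereas every old rat was above every adult in Pmp22.

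Sox10, the transcription factor that specifies neural crest glia, was lowest in adult rats. Their levels were 4.77, 4.36, 4.40 and 4.44, against 5.34, 5.22, 5.10 and 5.61 in old rats, with no overlap. Pups filled the range between and beyond, from 4.47 to 5.60 with a median of 4.92. Adult rats were 1.77-fold below old rats (-0.83 ± 0.20, adjusted p = 0.00174). This call was lost after quantile normalization (-0.57, adjusted p = 0.0286) and with the other background correction (-0.49, adjusted p = 0.0350). Newborn rats differed from adults by 0.47 ± 0.16 (adjusted p = 0.0123) and from old rats by -0.35 ± 0.16 (adjusted p = 0.0613). The first of these passed the threshold without rat 13, rat 23 or rat 33 (adjusted p = 0.00923, 0.00233 and 0.00459). Over all single rats left out it ranged from 0.43 to 0.56, with adjusted p up to 0.0479. Over 15 other alternatives it passed in 5 and ranged from 0.18 to 0.55, with adjusted p up to 0.324.

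Npy, the neuropeptide Y precursor, followed the same order of ages as Sox10 without passing the threshold in the fit over all rats. Adult rats stood at 7.03, 6.13, 5.67 and 5.99, below all old rats at 7.76, 7.37, 7.60 and 7.84. Pups ran from 5.24 to 8.33 with a median of 7.48 and overlapped both. Rats 23 of L2 and 33 of L4 lay far below the other pups, at 5.24 and 5.69, where the pup above them stood at 6.59. The adult minus old change was -1.44 ± 0.48 (adjusted p = 0.0191) and the newborn minus adult change 1.01 ± 0.38 (adjusted p = 0.0256). Leaving out rat 23 brought these to adjusted p = 0.00697 and 0.00529, and leaving out rat 33 to 0.00613 and 0.00446. Both are pups and enter the adult minus old change, which stayed at -1.44, only through the spread shared by all groups. Over all single rats left out, adjusted p ran up to 0.0608 for adult minus old and 0.1105 for newborn minus adult. Over 15 other alternatives the newborn minus adult change passed in 3 and ranged from 0.59 to 1.03, with adjusted p up to 0.2107. Against old rats pups differed by -0.43 ± 0.38 (adjusted p = 0.370). Th and Dbh, genes of the noradrenergic sympathetic neurons that also make Npy, varied widely and gave no call in any comparison. Between newborn and adult rats Th differed by -0.20 ± 0.99 (adjusted p = 0.891) and Dbh by 2.42 ± 1.10 (adjusted p = 0.0669), Dbh being above background on 11 of 19 pup, 0 of 8 adult and 1 of 8 old arrays. The arrays read RNA, so these values do not measure the amount of sympathetic fibres in the tissue. The part of sympathetic neurons in the Npy levels was not tested.

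Apod, a secreted lipid-binding lipocalin, was set apart in old rats. They stood at 4.84, 4.53, 4.58 and 5.13, above the adults at 3.88, 3.16, 2.83 and 2.98. Pups ran from 1.14 to 4.12 with a median of 3.35, all below the old rats, and both ends of this range were held by rats 23 and 32. The newborn level was 3.45-fold below the old (-1.79 ± 0.40, adjusted p = 0.000534) and did not differ detectably from the adult (-0.23 ± 0.40, adjusted p = 0.664). Adult rats were below old rats by 1.56 ± 0.51 on the log2 scale, without overlap and just short of the threshold (adjusted p = 0.0159). This passed when rat 23 or rat 33 was left out (0.00657 and 0.00676), with the change still at -1.56. Both are pups and enter this comparison only through the spread shared by all groups. Over all single rats left out, adjusted p ran up to 0.0451. Over 13 other alternatives the adult minus old change passed in 7, some of which take the 2 sides of a rat as separate samples. It ranged from -1.57 to -1.38 there, with adjusted p up to 0.0308. The fibroblast sum given with Pmp22 was lowest in old rats, and its part in the Apod result was not tested.

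Fabp7, the brain lipid-binding protein of radial and ensheathing glia, was higher in pups. Adults stood at 7.47, 6.80, 6.71 and 6.86 and old rats at 7.17, 7.23, 7.31 and 7.74. Pups ran from 5.35 in rat 23 to 9.59 in rat 32 with a median of 8.22, and overlapped both later ages through L2. The newborn level was 2.30-fold above the adult (1.20 ± 0.33, adjusted p = 0.00345). This call rested on the scaling. It was lost with the 75th percentile (1.07, adjusted p = 0.0113), with quantile normalization (0.68, 0.0978) and with the other background correction (0.43, 0.301). The call was also lost without rat 14, 15 or 16 (adjusted p = 0.0149, 0.0173 and 0.0133), although the change moved little (1.15, 1.12 and 1.17). Against old rats the change was 0.80 ± 0.33 (adjusted p = 0.0467), past the threshold without rat 23 (0.91, adjusted p = 0.00285). It stayed short of the threshold without any other single rat, with adjusted p up to 0.121. Adult and old rats differed by -0.40 ± 0.42 (adjusted p = 0.493), a sign that turned to 0.086 and 0.34 with quantile normalization and the other background correction.

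S100b, a calcium-binding protein of Schwann and ensheathing cells, was above background on 0 of 35 arrays. Its probe, printed on 10 spots at chr20:12792126-12792185 (rn3, minus strand), read -6.58 to 0.46 intensity units, at or below 0 on 18 of 19 pup arrays and 15 of 16 later arrays. The gene was therefore not measured by this probe and entered no count of changes.

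L1 pups and old rats, scanned on 1 day, gave the comparison of ages within a scan day. The L1 pups were littermates on 1 slide and the old rats were on other slides, so that age cannot be told apart from litter and slide here. The test takes the littermates as independent. Of the 7 measured genes 0 were higher in L1 by limma (Pmp22 and Fabp7 at an unadjusted p under 0.05) and 2, Mag and Apod, were lower, where 11.8% of all probes were higher and 16.6% lower. Mag stood at -0.79, -1.32, -0.69 and -0.50 in L1, 6.31-fold below old rats (-2.66 ± 0.19, adjusted p = 9.906e-05). Apod stood at 3.35, 2.58, 3.67 and 1.90 in L1, 3.71-fold below old rats (-1.89 ± 0.39, adjusted p = 0.00758). The Mag call held without any one of the 8 rats, whereas that of Apod was lost without rat 9, 10, 17, 18, 19 or 20, with adjusted p of 0.0128 to 0.0233 and the change between -2.05 and -1.77. Fabp7 was higher in every L1 pup, at 8.58, 7.91, 8.75 and 7.99, than in every old rat, with a change of 0.94 ± 0.23 (adjusted p = 0.0158). Sox10 was lower in every L1 pup, at 4.87, 4.71, 4.92 and 4.50, with a change of -0.57 ± 0.14 (adjusted p = 0.0152). Neither passed the threshold. Pmp22 differed by 0.46 ± 0.14 (adjusted p = 0.0329), less than over all litters.

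Among the 4 litters 0 of 7 members passed the F test of limma, beside 22.6% of all probes, and 3 (Fabp7, Pmp22 and Mag) had an unadjusted p under 0.05. Fabp7 came nearest, with litter means of 8.31 ± 0.42 (SD, n = 4) in L1, 7.15 ± 1.08 (n = 5) in L2, 8.51 ± 0.44 in L3 and 8.67 ± 0.59 in L4 (adjusted p = 0.0104). L2 was lowest, with 8.14, 7.10, 5.35, 7.35 and 7.81. Pmp22 had its lowest mean in L1, at 4.80 ± 0.25, against 5.60 ± 0.60 in L2, 5.43 ± 0.25 in L3 and 5.29 ± 0.21 in L4 (adjusted p = 0.0269). Mag had its highest mean in L1, at -0.82 ± 0.35, against -1.81 ± 0.87, -1.98 ± 0.44 and -1.77 ± 0.61 (adjusted p = 0.0575). Without rat 25 all 3 genes passed, at adjusted p of 0.00871, 0.00844 and 0.00939. Litter and slide were largely the same partition of the pups and cannot be told apart, and L1 alone among the litters was scanned on a day of its own. L2, L3 and L4 shared 2 scan days, and on the day that held most of their arrays Fabp7 stood at 5.35 to 8.14 in L2, 8.34 to 9.06 in L3 and 8.07 to 9.59 in L4.

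The 2 sides of the nose of an adult or old rat differed, most of all for Mbp. For Mbp by the first probe, the SD between sides was 0.92 and that between rats of an age 0.80. The second is taken on averages of 2 sides, so these 2 values are not on the same scale. Rat 14 held the widest pair, 0.73 on side A and 2.37 more on side B, a 5.19-fold difference, and the second probe gave -1.50 and 1.27. The median difference between sides was 1.06 for Mbp, 0.83 for Npy, 0.54 for Fabp7, 0.39 for Mag, 0.36 for Apod, 0.23 for Pmp22 and 0.19 for Sox10. The myelin gene Mbp was thus the most uneven and Sox10 the most even from side to side. Side A was the higher for the first Mbp probe in 5 of 8 rats, for Fabp7 in 4, for Npy and Mag in 3, and for Apod, Pmp22 and Sox10 in 2. The differences of the 2 Mbp probes ran together (Pearson r = 0.97 over 8 rats, Spearman rho = 0.95), and those of Mbp with Mag (r = 0.81, rho = 0.67). Those of Npy ran with Fabp7 (0.90, rho = 0.95) and Apod (0.88, rho = 0.81), and Sox10 and Apod were higher on the same side in 8 of 8 rats. Pmp22 gave 0.77 with Apod (rho = 0.57), 0.66 with Npy (rho = 0.40), 0.62 with Sox10 (rho = 0.21) and 0.47 with Mbp (rho = 0.43), and Mag and Sox10 gave 0.51 (rho = 0.38). Mbp and Npy gave r = 0.29 (rho = 0.50). The points share 8 rats and the scaling of each array, and are given as a description.

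**Figure D3:**
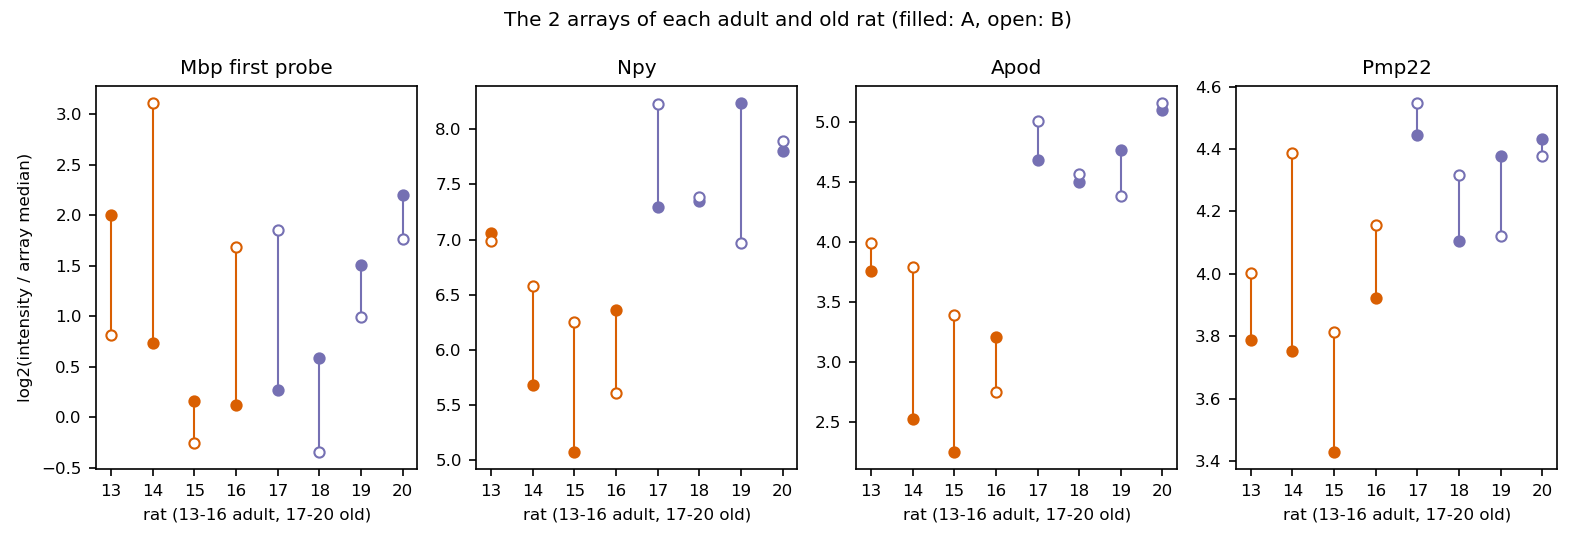
Log2 level over the array median (vertical axis, own scale in each panel) on side A (filled) and side B (open), joined by a line, in each of 4 adult rats (13 to 16) and 4 old rats (17 to 20), for Mbp by its first probe, Npy, Apod and Pmp22. The widest pair for Mbp is rat 14, with side B above side A by 2.37, while the Apod pairs of old rats lie above all those of adults.

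Between rats of a group, Npy, Apod, Fabp7 and Sox10 deviated together. Each rat's deviation from its group mean was taken, so that age and litter means are removed, and correlated over the 27 rats as a description. Npy and Apod deviated nearly as one (r = 0.97, rho = 0.97, and 0.95 without the 2 rats farthest in Npy). Fabp7 followed both (r = 0.88 with each), and Sox10 followed Npy (0.87) and Apod (0.88). Over the 27 rats Mag followed these genes less closely than they followed each other. It gave 0.55 with Npy, 0.55 with Apod, 0.45 with Sox10, 0.67 with Fabp7 and 0.68 with the first Mbp probe. Without rat 25 the values with Fabp7 and Mbp were 0.66 and 0.52. In the 8 adult and old rats Mag gave 0.93 with Npy, 0.89 with Apod, 0.62 with Sox10, 0.73 with Fabp7 and 0.80 with Mbp. One rat was the lowest for Npy, Apod and Fabp7 alike in 4 of the 6 groups (rats 23, 26, 33 and 15), and one rat the highest in 5 (rats 11, 30, 32, 13 and 20). Rat 23 was below its group mean for all 7 genes, by a mean of 1.20. Of the nerve list 5 of 6 genes were also low in rat 23, by a mean of 1.40, while the ensheathing list was lower by 0.24. Rat 33 was below for all 7 genes too, by a mean of 0.71, with the nerve list at -0.04. The part of nerve content in these deviations was not tested.

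By its first probe, Mbp deviated less closely with Npy than with genes of the myelin sheath. Its deviations correlated with those of Prx, the periaxin of Schwann cells (r = 0.74), Pmp22 (0.73) and Mag (0.68), and less with those of Npy (0.39). These values leaned on rat 25. Without it they were 0.52 with Prx, 0.52 with Pmp22, 0.52 with Mag and 0.34 with Npy. The second probe without rat 25 gave 0.57 with Mag and 0.55 with Pmp22 but 0.39 with Prx, below its 0.48 with Fabp7 and 0.46 with Npy. Pmp22 and Prx gave 0.84, or 0.67 without rat 25, in which Prx stood at 2.37 where the pups began at 0.50. Rat 25 was above its group mean for all 7 members, by a mean of 0.99, and the myelin list was above it by 0.43.

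**Figure D4:**
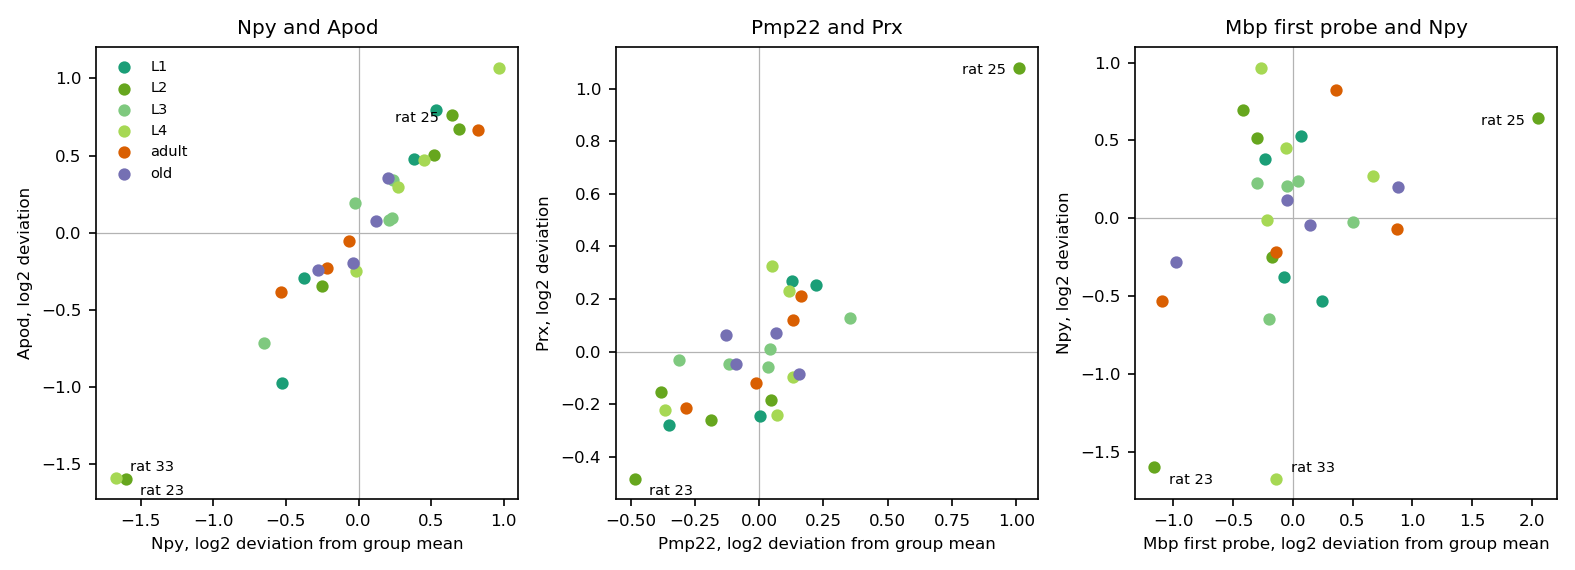
Deviation of each of the 27 rats from its group mean on the log2 scale, for Npy against Apod, Pmp22 against Prx and the first Mbp probe against Npy; colours mark the groups. Npy and Apod fall along a line with rats 23 and 33 at the low end, whereas Mbp and Npy do not, and rat 25 stands alone in the other panels.

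Among 14683 named probes expressed in at least 1 group, the genes most like each member were sought over the 27 rats by Pearson correlation. By level, Mag was most like Whrn (0.92) and Dapk1 (0.92), Pmp22 most like Tspan18 (0.93) and Tmem86a (0.91), and Apod most like Apoe (0.95) and Plcd4 (0.91). Fabp7 was nearest to Ntrk2 (0.95) and Sema5b (0.92), and Npy to Cklfsf5 (0.92) and Mrap (0.90). Mrap also ranked second for Sox10 (0.83). Mbp had no close neighbour, the nearest being Rela (0.73) and Or5aq7b (0.55). By deviation from the group mean, Apoe, a lipid carrier of glia, ranked second for Npy (0.97) and for Sox10 (0.88) and first for Apod (0.98). Fabp7 was nearest to Mmd2 (0.96) and Gpm6b (0.93), Pmp22 to Tspan18 (0.85) and Prx (0.84), and Mag to Caln1 (0.80) and Wnt7a (0.78). The neighbours of Mag were weaker than those of Apod on this measure.

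Other genes of the myelin sheath and Schwann cell did not move one way. Of 16 listed genes 12 were measured, Gal3st1, Fa2h and Ncmap having no probe found here and Gjc3 being expressed in no group. Between newborn and adult rats 2 were higher, 5 lower and 5 without a call (26.8% and 19.8% of all probes were higher and lower), with a median of -0.25 beside 0.10 for all probes. Prx rose with Pmp22. It ran from 0.50 to 2.37 in pups, from -0.72 to -0.30 in adults and from -0.42 to -0.26 in old rats, so that every pup was above every later rat, and it was higher in pups than in adults by 1.45 ± 0.18 (adjusted p = 2.119e-07). Pou3f1, a factor of Schwann cells before myelination, was above background on 14 of 19 pup arrays and on none of the adult or old arrays, which puts pups at least 2.07-fold above adults and at least 1.80-fold above old rats. These bounds set the pup mean against the lowest signal well above background on each later array.

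Genes lower in pups, as Mag was, included Mal, a lipid-raft protein of myelin, which was lower in pups than in adults by 2.15 ± 0.26 on the log2 scale (adjusted p = 1.482e-07). Gldn, the gliomedin of the node of Ranvier, was lower by 1.59 ± 0.26 (adjusted p = 1.551e-05). Ugt8, the galactosylceramide synthase of myelin lipid, was above background on 4 of 19 pup arrays and 8 of 8 adult arrays, with a call for lower (adjusted p = 0.00473). Cnp, an enzyme of non-compact myelin, stood at -0.04 ± 0.11 (adjusted p = 0.790) and Egr2, the factor of myelinating Schwann cells, at -0.47 ± 0.29 (adjusted p = 0.187), above background on 8 of 19 pup, 6 of 8 adult and 1 of 8 old arrays. Against old rats 2 of the 12 were higher in pups (Pou3f1 and Prx) and 4 lower (Mal, Gldn, Drp2 and Pllp). Of all probes 20.4% were higher and 22.7% lower, and the median was -0.71 beside -0.04. Between adult and old rats Mpzl1 was higher in adults and Gjb1, Cldn19 and Drp2 lower, where 11.7% of all probes were higher and 20.2% lower. Drp2 was well above background on 3 of 19 pup arrays, 7 of 8 old arrays and none of the adult arrays. Its levels in pups and adults were therefore near background. By a bound of the kind given for Pou3f1, old rats were at least 2.38-fold above adults in Drp2.

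**Figure D5:**
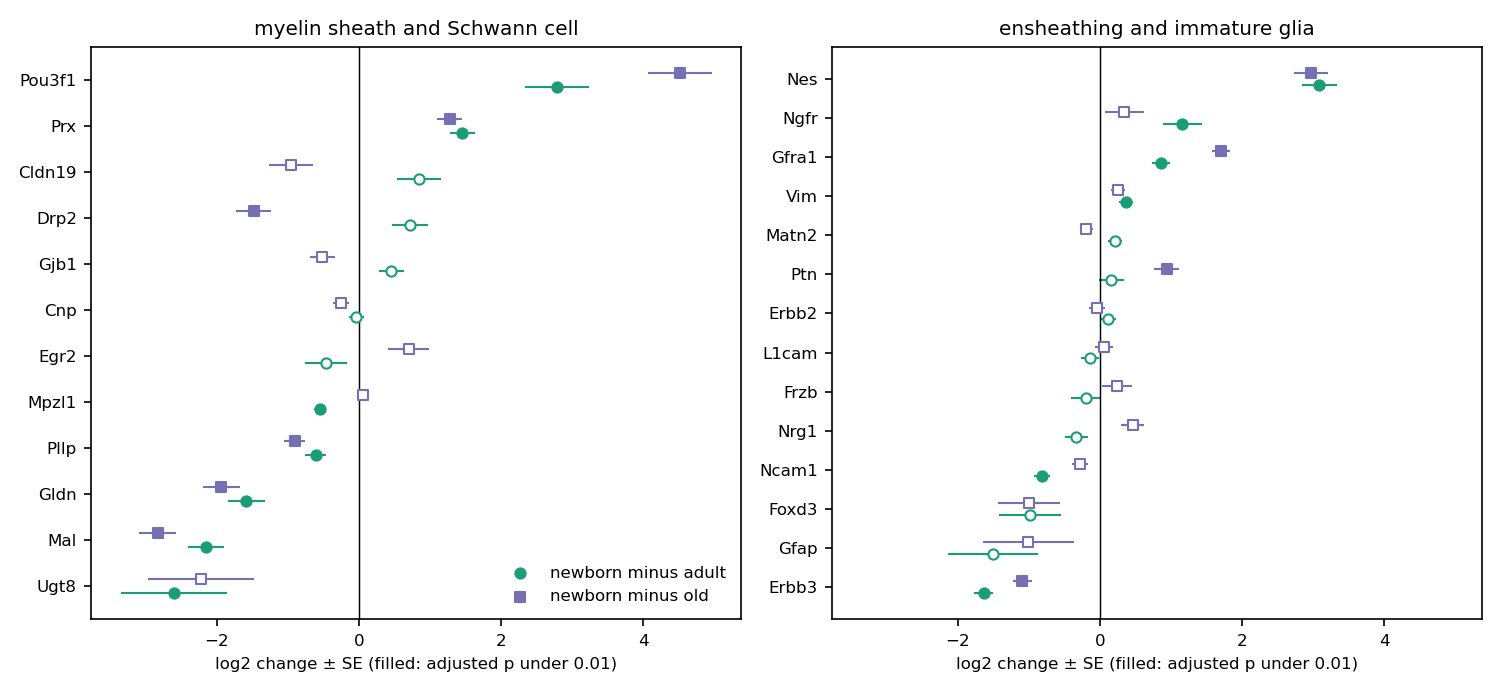
Log2 change with its SE (horizontal axis) of the measured genes of the myelin and Schwann cell list (left) and of the ensheathing and immature glia list (right), for newborn minus adult (circles) and newborn minus old (squares), which share the pups; filled symbols have an adjusted p under 0.01. Prx lies to the right and Mal and Gldn to the left in both comparisons, and the Pou3f1 estimates, for which later arrays were not well above background, depend on the floor of the scaled signal. The Drp2 estimates rest on levels near background in pups and adults.

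Of the ensheathing and immature glia list, 14 of 16 genes were measured, with no probe found for Sox2 and Cdh19 expressed in no group. Between newborn and adult rats 4 were higher and 2 lower, where 26.8% of all probes were higher and 19.8% lower, with a median of -0.01 beside 0.10 for all probes. Nes, the nestin filament of immature cells, was higher in pups by 3.09 ± 0.24 (adjusted p = 1.457e-10). Ngfr, the p75 receptor of ensheathing glia, ran from 1.78 to 4.19 in pups and from 1.20 to 1.30 in adults, a change of 1.16 ± 0.28 (adjusted p = 0.00102). Erbb3, the neuregulin receptor of the Schwann lineage, was lower by 1.64 ± 0.14 (adjusted p = 4.43e-10) and Ncam1 by 0.81 ± 0.11 (adjusted p = 1.818e-06). Gfap, a filament of ensheathing cells, stood at -1.51 ± 0.64 (adjusted p = 0.0483). Against old rats 3 were higher in pups (Nes, Gfra1 and Ptn) and Erbb3 was lower, where 20.4% of all probes were higher and 22.7% lower. Between adult and old rats 4 were higher in adults (Gfra1, Ncam1, Ptn and Nrg1) and 0 lower by limma, with Ngfr and Matn2 lower at an unadjusted p under 0.05, where 11.7% of all probes were higher and 20.2% lower. Sox10 and Mag were lower in adults in that comparison.

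Markers of oligodendrocytes and astrocytes, known mainly from the brain although Aqp4 is also found in nasal epithelium, were read because oligodendrocytes too make Mbp and Mag. Of 8 genes 7 were measured, and Opalin was expressed in no group. Mog, a marker of oligodendrocyte myelin, was above background on 10 of 19 pup, 7 of 8 adult and 8 of 8 old arrays, at levels of -3.13 to -0.98 in pups, -2.06 to -1.63 in adults and -1.04 to 0.09 in old rats. Mog and Mobp were lower than in old rats both in newborn rats (-1.42 ± 0.24 and -1.69 ± 0.34, adjusted p = 3.134e-05 and 0.000238) and in adults (-1.29 ± 0.31 and -2.03 ± 0.44, adjusted p = 0.00182 and 0.000682). Mag was lower than in old rats in the same comparisons. Slc1a2, a glutamate transporter of astrocytes, was also lower in both (-2.19 ± 0.14 and -0.67 ± 0.19, adjusted p = 1.524e-11 and 0.00529). The others did not follow this order. Cldn11, a claudin of myelin, was higher in pups than in old rats (1.41 ± 0.23, adjusted p = 1.346e-05), Aqp4 was higher in adults than in old rats (1.40 ± 0.23, adjusted p = 3.127e-05), and Olig1 and Olig2 in pups stood at 0.33 ± 0.15 and 0.19 ± 0.16 against old rats (adjusted p = 0.0699 and 0.360). The summed level of the 7 genes was 114.3 to 228.8 times the array median in pups, 111.9 to 145 in adults and 129.1 to 176.2 in old rats, most of it from the Olig1 probe, with a mean log2 level of 7.36 in pups. Counts between newborn and adult rats were 2 higher and 2 lower (26.8% and 19.8% of all probes), against old rats 1 and 4 (20.4% and 22.7%), and between adult and old rats 1 and 3 (11.7% and 20.2%), with medians of -0.13, -1.02 and -0.27 beside 0.10, -0.04 and -0.13 for all probes. The part of these cells in the Mag result was not tested.

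Other cell types of the dissected tissue shifted with age beside the glial genes. Of all probes, 26.8% were higher and 19.8% lower in pups than in adults, and 20.4% higher and 22.7% lower than in old rats. The 5 mature sensory neuron markers were all lower in pups than at both later ages, and of 6 immature neuron markers 5 were higher than in adults and 6 higher than in old rats. All 6 fibroblast markers were higher in pups than in old rats, as were 6 of 7 cartilage markers, whose sum was 134.5 to 457.2 in pups, 51.2 to 91.5 in adults and 32.2 to 34.8 in old rats. The nerve list summed to 186.4 to 548.6 in pups, 137.5 to 164.9 in adults and 102.3 to 136.2 in old rats, with 1 of 6 higher in pups than in adults (Prph) and 2 higher than in old rats (Prph and Nefm). Of 5 sustentacular cell markers, all were lower in pups than in old rats. How far these shifts enter the values of the members was not tested.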

How the data were processed

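Total RNA was hybridised to one-dye Agilent whole rat genome arrays. The deposited scanner files give background-subtracted intensity per spot, made by the authors with Feature Extraction, release 9.5.1.1 for adult and 9.5.3.1 for other arrays. The authors' value table, a ratio over array and probe medians, was an alternative; it matched the scanner values up to 1 constant per probe for 99.69% of probes. Control and outlier spots were left out, spots of a probe averaged, intensity divided by the array median, floored at 0.01 and put on a log2 scale. Sides of a rat were averaged. Groups were compared in limma 3.58.1 (R 4.3.3) over 6 groups, two-sided, newborn being the mean of the 4 litter means, with Benjamini-Hochberg adjustment over all probes and calls at an adjusted p under 0.01. L1 and old rats were also fitted alone. A probe was above background when at least 0.5 of its spots were uniform, unsaturated and well above it, and expressed on 3 arrays of a litter or 6 of 8 later arrays. All members by every probe, fixed genes of 2 glial lists with the 2 largest calls each way, and the 2 most alike genes are named; the brightest probe stands for a gene. A few genes that this rule takes in are not reported here. The other background correction was normexp with an offset of 50, followed by quantile normalization. The fit was checked on simulated data. Members and lists were chosen with earlier results of these data known. Alternatives covered scaling, background, filters, replicate unit, batch, test and each rat.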

Additional observations from a re-analysis of the deposited data

Results flagged for a closer look

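In 48 groups of 4 or 5 rats, each a member probe in 1 group, a rat lay apart from the others by more than Dixon's limit in 3, where chance gives about 1 in 20. Mbp by its first probe was highest in rat 35 of L4, at 1.33, where the other 4 pups stood between 0.39 and 0.60, and the second Mbp probe was lowest in the same pup. Pmp22 was lowest in rat 33 of L4, at 4.93, with the others between 5.34 and 5.43. Apod was lowest in rat 26 of L3, at 2.55, with the others between 3.35 and 3.62. Rat 25 of L2, whose Mbp level was the highest of all rats, did not pass this limit in the 5 pups of its litter.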

How the results depend on the processing

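The newborn calls for Pmp22 against both later ages, for Mag against both, and for Apod against old rats held under every alternative tried, rats left out included. With the 4 litter means as replicates in limma no newborn call was lost, and Npy passed against adults (1.01, adjusted p = 0.00819). Counts of members called were 3 between newborn and adult rats, 3 between newborn and old rats, 2 between adult and old rats, 0 among litters and 2 between L1 and old rats. Between newborn and adult rats the count was 5 with every array as a sample and 5 with the methods' t-test on arrays (Npy and Sox10 added). Both take the 2 sides of a rat as separate samples, and calls over all probes rose too, from 19098 to 22295 and 20407. The Fabp7 call was lost with the 75th percentile, quantile normalization and the other background correction. Without single rats the count was 2 to 5. Between newborn and old rats it was 3 to 4 without single rats. Between adult and old rats it was 1 with quantile normalization (Sox10 lost), 1 with the methods' t-test on rats (Mag lost, adjusted p = 0.0141), 4 with every array as a sample, 4 with the rat as a random block, 4 with only the groups compared (Apod and Npy added), 5 with the methods' t-test on arrays, and 2 to 4 without single rats. Among litters it was 1 with only probes expressed in common (Fabp7), and 0 to 3 without single rats. Between L1 and old rats it was 1 with the 75th percentile (Apod lost), 4 with the other background correction, 4 with only probes expressed in common, and 1 to 3 without single rats. The Mbp change between adult and old rats turned from -0.06 to 0.024 with the 75th percentile and 0.027 with the other background correction, and ranged from -0.38 to 0.31 without single rats, positive without adult rat 15 or old rat 20 (0.24). The Mbp change between newborn and adult rats ranged from -0.57 to 0.083 without single rats, positive without adult rat 14, and between newborn and old rats from -0.59 to 0.031, positive without old rat 20. The Fabp7 change between adult and old rats turned to 0.086 with quantile normalization and 0.34 with the other background correction. The cause was not tested. Over single members, 321 of 360 alternatives and 782 of 812 fits without a rat left the direction and the side of the threshold as they were. Over all probes, calls between adult and old rats numbered 13112, or 7450 by the methods' t-test on rats. They numbered 18410 with every array as a sample and 17075 by the methods' t-test on arrays. Rat numbers were unique to a rat, and no paired analysis was possible because the groups compared share no replicate numbers. Levels near background limit Mag in pups and the second Mbp probe, and S100b could not be measured.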
